A study of Mus musculus with 8 samples.

Results

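The miR-34 family was examined in mouse kidney after systemic exposure to lipopolysaccharide (LPS), a component of the outer membrane of Gram-negative bacteria. The 5 members were the array entries named mmu-miR-34a-5p, mmu-miR-34b-5p, mmu-miR-34b-3p, mmu-miR-34c-5p and mmu-miR-34c-3p (the prefix, for mouse, is left out from here on), out of 1881 mouse miRNA entries on the array. Total RNA from kidney tissue (30 mg per sample) was labelled with Cy3 and hybridised to Agilent miRNA arrays. Of these, 4 were from mice in the LPS model of septic acute kidney injury and 4 from sham mice. The LPS mice had received 10 µg of LPS per g of body weight into the peritoneal cavity, the sham mice the same dose of normal saline, and kidneys were taken 24 h later. The sources used here do not give strain, sex or age. The labels number the samples (sham replicates 5, 6, 7 and 8, LPS replicates 6, 10, 11 and 12) without saying that each came from its own mouse, so the p-values measure only the spread between these samples. Kidney tissue is a mixture of cell types, so fewer cells of a type and less RNA per cell cannot be told apart.

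A miRNA is a short RNA that pairs with messenger RNAs, mainly through its seed, bases 2 to 8 from the 5′ end, and lowers their output. The transcription factor p53, which is activated by DNA damage and other stresses, induces the miR-34 genes. The family is known for repressing cell cycle and survival genes, including cyclin-dependent kinases, Bcl2, Sirt1 and Notch1. miR-34a comes from a gene of its own, while miR-34b and miR-34c are processed from a shared primary transcript. miR-34b and miR-34c, with the related miR-449 miRNAs, are best known from multiciliated epithelia such as airway and oviduct.

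The mature sequences are shown because the 5p arms share a seed and the 3p arms of the cluster share another. Capitals mark the seed, the sequences are from RefSeq (GRCm38.p6), and 4 of the 5 members matched an entry there. miR-34c-5p is named only.
miR-34a-5p: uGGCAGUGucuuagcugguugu
miR-34b-5p: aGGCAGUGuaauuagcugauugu
miR-449a-5p: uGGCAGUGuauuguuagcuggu
miR-449c-5p: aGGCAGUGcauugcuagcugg
miR-34b-3p: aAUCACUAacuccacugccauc
miR-34c-3p: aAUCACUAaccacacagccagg
The seed GGCAGUG was found in 4 of the 1608 array miRNAs that matched a RefSeq mature sequence, which are the first 4 shown. miR-34c-5p and miR-449b matched no entry and could not be counted. The seed AUCACUA was found in 2, miR-34b-3p and miR-34c-3p.

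The hairpins carry the 3 genes' positions, and capitals mark the stretches that the array's probes pair with on the 5p and the 3p arm. In GRCm38.p6, Mir34a lies at chr4:150068454-150068555 on the plus strand, and the RefSeq table lists no other gene over it. Mir34b lies at chr9:51103562-51103645 and Mir34c at chr9:51103034-51103110, both on the minus strand, with 451 bases between them. The table lists the protein-coding genes Btg4 and Hoatz as overlapping both hairpins. Whether they fall in exons or introns of these genes was not analysed here.
Mir34a: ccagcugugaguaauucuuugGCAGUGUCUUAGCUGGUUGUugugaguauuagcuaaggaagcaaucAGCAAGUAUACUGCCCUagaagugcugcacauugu
Mir34b: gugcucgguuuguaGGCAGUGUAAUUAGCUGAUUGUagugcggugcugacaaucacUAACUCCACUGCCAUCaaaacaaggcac
Mir34c: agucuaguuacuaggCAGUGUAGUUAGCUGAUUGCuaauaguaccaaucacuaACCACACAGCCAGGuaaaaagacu

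Each member is read by 2 probes that differ in length by 1 base, so the probes of a member are readings of the same RNA and not replicates. The longer 5p probes are shown because they set how far the 3 readings are separate. Capitals mark where the probes of miR-34b-5p and miR-34c-5p differ.
miR-34a-5p probe: acaaccagctaagacactgc
miR-34b-5p probe: AcaatcagctaaTtacactgcc
miR-34c-5p probe: GcaatcagctaaCtacactg
Over the 20 bases that they share in length, the miR-34b-5p and miR-34c-5p probes were identical at 18, with the differences A1G and T13C, miR-34b-5p first and counted from the probe's 5′ end. The miR-34a-5p probe matched that of miR-34b-5p at 11 of 20 bases without a gap and at 18 with 1 gap. How much of the signal of one member comes from another was not tested. Because probes differ in how well they bind, the level of one member is not set against that of another, and each is compared only between arrays.

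All 8 arrays lay on 1 slide, the sham arrays in row 1 and the LPS arrays in row 2, so slide row and treatment cannot be told apart. Between 336 and 375 miRNAs were well above background per array, and the number of arrays limits the precision. Of the fixed marker lists, 8 of 8 kidney tubule miRNAs were detected throughout (summed log2 level 6.51 to 6.62 in sham and 6.36 to 6.57 in LPS), with 3 lower in LPS, where 25.4% of all tested miRNAs were lower and 14.8% higher. The liver marker miR-122-5p was detected on no array, nor were the 3 markers of multiciliated cells. The 6 leukocyte markers were all detected, with a summed log2 level of 1.18 to 1.64 in sham and 1.79 to 1.89 in LPS, and 2 of them, miR-223-3p and miR-155-5p, were higher. The other 4 leukocyte markers were not called and differed in direction. Their LPS minus sham log2 differences were 0.26 (miR-142a-3p), 0.13 (miR-142a-5p), -0.01 (miR-342-3p) and -0.22 (miR-150-5p). The red cell markers that could be tested, miR-451a and miR-144-3p, were both higher, and the list's summed log2 level ran from -0.77 to 1.67 in sham and from 1.06 to 3.80 in LPS. Of the 5 smooth muscle and stroma markers, 2 were lower in LPS, miR-145a-5p (-0.44) and miR-199a-5p (-0.25), and 3 were not called. The 2 endothelium markers and the 1 striated muscle marker tested were not called. The part of leukocyte, red cell, smooth muscle and stroma RNA in the miR-34 results was not tested.

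Of the 5 members, the 5p arms of miR-34a, miR-34b and miR-34c were measured above background and 2 of these 3, miR-34b-5p and miR-34c-5p, were higher in LPS by 1.25-fold and 1.28-fold. They come from a shared primary transcript and are read by near-identical probes, so they are not 2 separate results. Their calls held in 20 and 13 of 27 alternatives, including 5 and 2 of the 8 fits that left out an array. For miR-34c-5p the groups overlapped. miR-34a-5p showed no change that could be told from its spread. The 3p arms of miR-34b and miR-34c were not well above background on any array. Across the 338 miRNAs tested, 14.8% were called higher in LPS, 25.4% lower and 40.2% in either direction (limma, Benjamini-Hochberg adjusted p under 0.05), so calls in this comparison were frequent.

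The 3p arms gave no usable signal. The 4 probes of miR-34b-3p and miR-34c-3p, with the 2 of miR-34a-3p, gave background-subtracted signals between -1.44 and 3.94 scanner units, and 0 of their spots were flagged well above background. The lowest signal of a probe that did count as above background lay between 16.6 and 20.4 on the 8 arrays. The 14 probes of the 5 miR-449 entries, which share the miR-34 seed in the 5p arms of miR-449a and miR-449c, ranged from -5.80 to 2.64, also with 0 such spots. None of these was tested, and such a signal gives only an upper bound on the amount.

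miR-34a-5p, the family member with the best documented p53 response, was well above background on every array. Its summed background-subtracted signals were 2102, 2343, 1432 and 1451 in sham replicates 5, 6, 7 and 8, and 1478, 2018, 2021 and 2379 in LPS replicates 6, 10, 11 and 12. High and low arrays occurred in both groups, and the groups overlapped over almost their whole range. On the log2 scale relative to each array's 75th percentile, the levels were 2.12, 2.32, 1.49 and 1.53 in sham and 1.53, 1.91, 1.94 and 2.27 in LPS. The means were 1.87 ± 0.42 (SD, n = 4) and 1.91 ± 0.30 (SD, n = 4). The difference was 0.05 ± 0.22 (SE) on the log2 scale, with a 95% interval of -0.46 to 0.56 and an adjusted p of 0.890 by limma. This interval reaches far enough on either side to hold a change as large as that of miR-34b-5p or miR-34c-5p.

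miR-34b-5p, processed from the first hairpin of the chromosome 9 transcript, was higher in LPS. Its summed signals were 86.8, 82.3, 77.7 and 76.9 in sham replicates 5, 6, 7 and 8, and 95.4, 122, 102 and 109 in LPS replicates 6, 10, 11 and 12. Every LPS array was above every sham array, and LPS replicate 10 was the highest. The log2 levels were -2.47, -2.52, -2.71 and -2.70 in sham and -2.42, -2.14, -2.37 and -2.18 in LPS. After this scaling the groups still did not overlap, although LPS replicate 6 and sham replicate 5 came close to each other. Among all tested miRNAs, 12.1% were higher in LPS without overlap and 37.0% did not overlap in either direction. The means were -2.60 ± 0.12 (SD, n = 4) and -2.28 ± 0.14 (SD, n = 4), a difference of 0.32 ± 0.09 (SE) on the log2 scale, or 1.25-fold. The 95% interval was 0.12 to 0.53 and the adjusted p 0.0235 by limma. The call was lost when sham replicate 7 (0.30, adjusted p = 0.0575), sham replicate 8 (0.29, adjusted p = 0.0642) or LPS replicate 12 (0.28, adjusted p = 0.0717) was left out. It was also lost with spike-in scaling (0.18), an offset of 50 after normexp background correction (0.10), no filter on dim miRNAs and the slide column as a block, all with the same direction.

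miR-34c-5p, from the neighbouring hairpin, was also higher in LPS, with signals nearer to background. Its summed signals were 42.2, 38.1, 39.2 and 36.7 in sham replicates 5, 6, 7 and 8, and 41.5, 61.8, 53.5 and 55.2 in LPS replicates 6, 10, 11 and 12. LPS replicate 6 lay among the sham arrays and the other LPS arrays above all of them. The log2 levels were -3.51, -3.62, -3.70 and -3.77 in sham and -3.62, -3.12, -3.30 and -3.16 in LPS. The means were -3.65 ± 0.11 (SD, n = 4) and -3.30 ± 0.23 (SD, n = 4), a difference of 0.35 ± 0.11 (SE), or 1.28-fold, with a 95% interval of 0.09 to 0.61 and an adjusted p of 0.0398 by limma. The groups overlapped at LPS replicate 6. The call held in 13 of 27 alternatives and in only 2 of the 8 fits that left out an array, those without sham replicate 5 or LPS replicate 6. In the other 6 fits (sham replicates 6, 7 and 8 and LPS replicates 10, 11 and 12, each left out in turn) the difference was 0.29 to 0.36 and the adjusted p 0.0745 to 0.121.

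**Figure D1:**
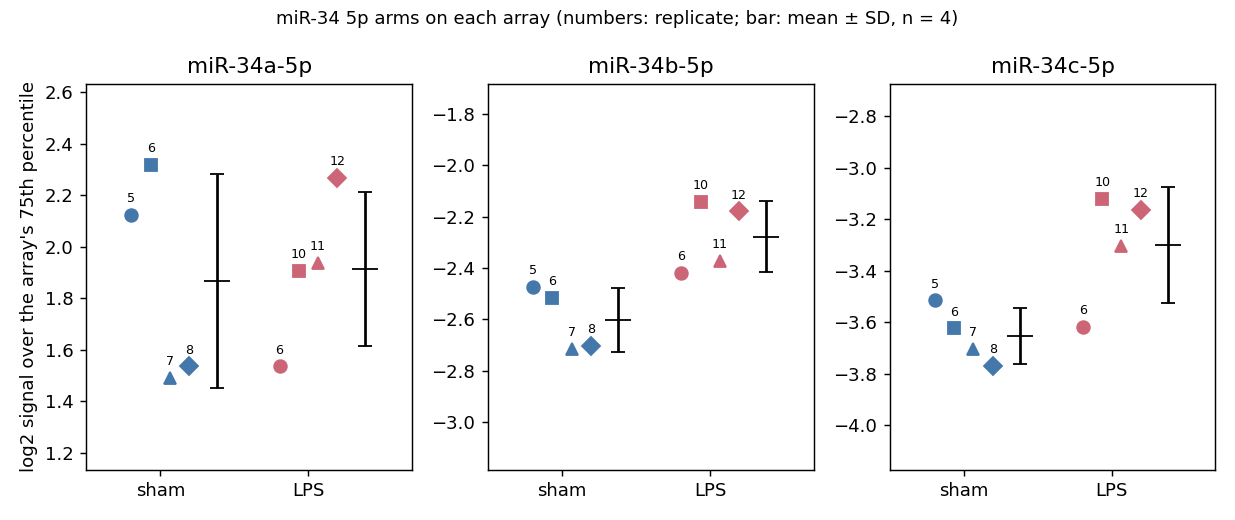
Log2 signal relative to each array's 75th percentile (y axis) for the 3 miR-34 5p arms measured above background, in sham and LPS arrays, with 1 point per array, its replicate number, and a bar for the mean ± SD (n = 4); the 3 panels span equal ranges around different centres. The miR-34b-5p arrays do not overlap between groups, miR-34c-5p overlaps at LPS replicate 6 (-3.62), and miR-34a-5p overlaps widely.

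At the level of single probes, 5 of the 10 probes of the 5 members could be tested, and 2 of those 5 were higher in LPS. Of 633 probes tested on the array, 14.2% were called higher, 24.6% lower and 38.9% in either direction. The 20-base probe of miR-34c-5p gave 26.2, 25.2, 25.9 and 23.1 in sham and 29.1, 40.8, 33.6 and 35.7 in LPS, in the same order of replicates as above. All 4 LPS values lay above all 4 sham values, where 38.7% of all tested probes had groups that did not overlap in either direction. The difference was 0.39 ± 0.10 (SE) on the log2 scale with an adjusted p of 0.0173 over all probes by limma. The 19-base probe of miR-34c-5p sat at the detection limit, with 9 of 60 spots well above background in sham and 34 of 60 in LPS. It counted as detected in LPS replicates 10, 11 and 12 alone, at 19.4 to 21.0 scanner units, against 12.5 in LPS replicate 6 and 12.9 to 16.0 in sham. It was therefore not tested alone, and the summed signal of miR-34c-5p overlapped between groups at the same array, LPS replicate 6.

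The 21-base probe of miR-34b-5p gave 28.2, 25.7, 27.6 and 26.5 in sham and 34.5, 43.2, 36.7 and 35.6 in LPS. The LPS values were all above the sham values, a difference of 0.39 ± 0.07 (SE) on the log2 scale and an adjusted p of 0.00292 by limma. Over all tested probes, 38.7% had groups that did not overlap in either direction. The 22-base probe gave 58.6, 56.6, 50.04 and 50.4 in sham and 60.9, 78.7, 65.2 and 73.4 in LPS. After scaling, its groups overlapped, and its difference of 0.29 ± 0.11 (SE) did not pass the threshold (adjusted p = 0.0619 by limma). It did pass in 5 of 24 alternatives: the percentile over all probes (0.34, adjusted p = 0.0361), no scaling (0.36, 0.0212), quantile normalization (0.36, 0.0255), and without sham replicate 5 (0.35, 0.0380) or LPS replicate 6 (0.36, 0.0391). The probes of miR-34a-5p differed between groups by 0.01 ± 0.22 (19 bases, adjusted p = 0.970 by limma) and 0.07 ± 0.22 (20 bases, adjusted p = 0.838). The 21-base probe of miR-34b-5p was called in 22 of 24 alternatives and lost its call with an offset of 50 after normexp (0.10, adjusted p = 0.0604) and a floor 2 times higher (0.07, 0.355). The 20-base probe of miR-34c-5p was called in 19 of 24, and not with that offset (0.08, 0.156), that floor (0.05, 0.296), no filter (0.39, 0.253), the slide column as a block (0.39, 0.0529) or without LPS replicate 12 (0.34, 0.0619).

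**Figure D2:**
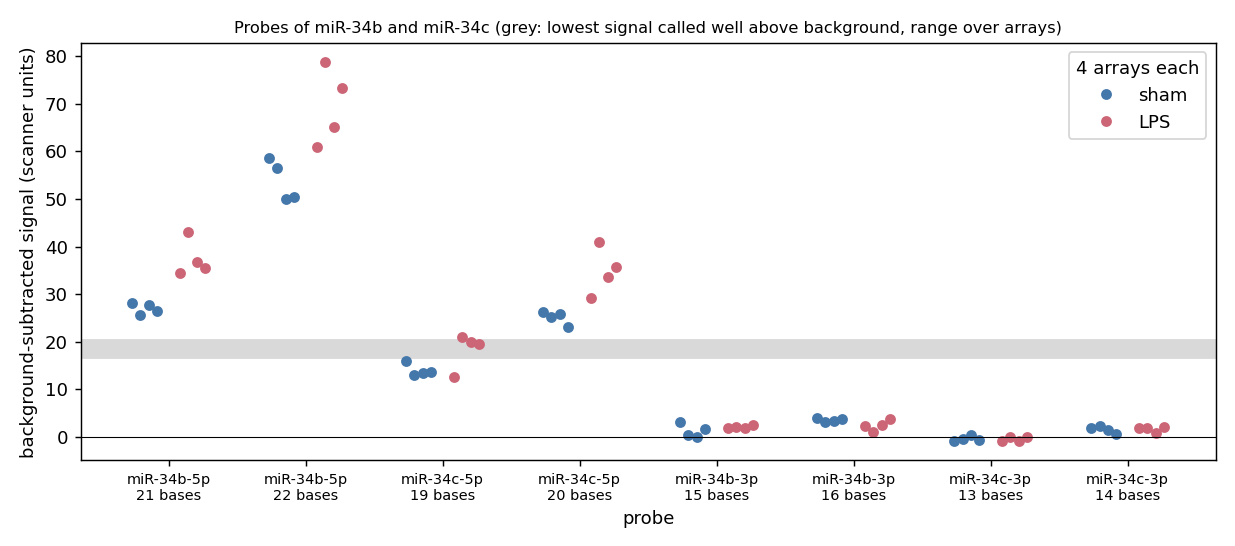
Background-subtracted signal in scanner units (y axis) for the 8 probes of miR-34b and miR-34c, with 1 point per array for 4 sham and 4 LPS arrays; the grey band spans 16.6 to 20.4, the lowest signal of a probe counted as well above background on each array. The 19-base probe of miR-34c-5p straddles the band, and the 4 probes of the 3p arms lie near 0.

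The labels' LPS and sham groups allow a direct test of whether miR-34a-5p and the cluster responded differently, using the ratio of the members within each array, in which the array's scaling cancels. The ratio of miR-34a-5p to miR-34b-5p, set to its sham mean, was 0.13, 0.36, -0.26 and -0.23 on the log2 scale in sham replicates 5, 6, 7 and 8 and -0.51, -0.42, -0.16 and -0.02 in LPS replicates 6, 10, 11 and 12. The groups overlapped, and the response of miR-34a-5p minus that of miR-34b-5p was -0.28 ± 0.19 (SE). Its 95% interval was -0.88 to 0.24 (exact permutation test, 2-sided p = 0.200, 0.300 adjusted over the 3 pairs compared).

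For miR-34a-5p against miR-34c-5p the difference of responses was -0.31 ± 0.19 (SE), with a 95% interval of -0.91 to 0.24 (exact permutation test, 2-sided p = 0.171, adjusted 0.300). A difference between miR-34a-5p and either cluster member was thus not shown at this number of arrays, and the intervals do not show that they respond alike. Without sham replicate 6 the differences of responses were -0.16 and -0.17, and with an offset of 50 after normexp -0.059 and -0.0059. miR-34b-5p and miR-34c-5p, the 2 cluster members, differed in response by -0.03 ± 0.07 (SE), with a 95% interval of -0.18 to 0.21 (exact permutation test, 2-sided p = 0.714, adjusted 0.714). The smallest 2-sided p that 4 against 4 arrays can give is 0.0286.

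**Figure D3:**
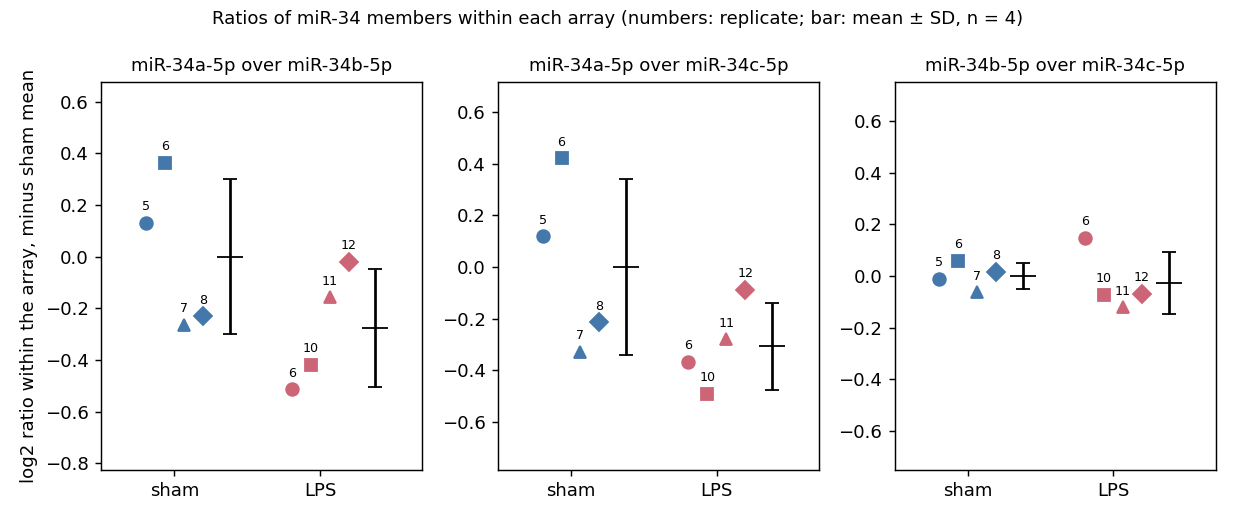
Log2 ratio of 2 miR-34 members within each array, minus its mean in sham (y axis), with 1 point per array, its replicate number, and a bar for the mean ± SD (n = 4). Both ratios with miR-34a-5p overlap between groups, with differences of -0.28 and -0.31, and the ratio of miR-34b-5p to miR-34c-5p spans a narrower range.

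miR-34a-5p varied between arrays of the same group more than most miRNAs did. Its pooled SD within groups was 0.36 on the log2 scale, rank 28 of 338 from the most variable, where the median over all tested miRNAs was 0.12. miR-34b-5p had a pooled SD of 0.13 and miR-34c-5p of 0.18, at the 55.3 and 69.2 percentile of all tested miRNAs, and miR-34a-5p was at the 91.7 percentile. The spread of miR-34a-5p was not confined to 1 array: sham replicates 5 and 6 and LPS replicate 12 were high, and sham replicates 7 and 8 and LPS replicate 6 low. Both of its probes followed each other closely (Pearson r = 0.99 over the 8 arrays, on levels). The probes of miR-34b-5p did so less closely (r = 0.85).

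**Figure D4:**
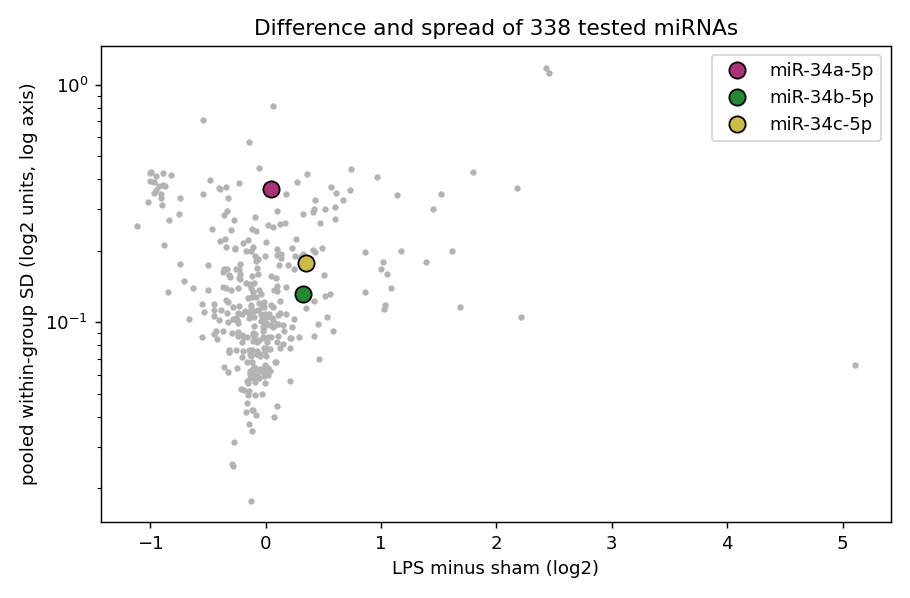
Pooled SD within groups on a log axis (y) against the LPS minus sham difference on the log2 scale (x) for 338 tested miRNAs (grey points), with the 3 miR-34 5p arms coloured. miR-34a-5p combines a difference of 0.05 with an SD of 0.36, and miR-34b-5p and miR-34c-5p have larger differences and smaller SDs (0.13 and 0.18).

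Between arrays, miR-34b-5p and miR-34c-5p moved together more closely than either did with miR-34a-5p. As a description over the 8 arrays, which share a slide, a scan and the scaling, the levels of miR-34b-5p and miR-34c-5p had a Pearson r of 0.94, and their deviations from the group means one of 0.86. The probes of these members are near identical over most of their length, as shown above. The level of miR-34a-5p had an r of 0.53 with miR-34b-5p and 0.52 with miR-34c-5p. Its deviations from the group means had an r of 0.81 and 0.71 with theirs, so within a group the arrays high in miR-34a-5p tended to be high in the cluster members too. This was not particular to the family, since by deviations each member had a higher r with some miRNAs outside it, given below.

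The tested miRNAs whose levels over the 8 arrays were most like miR-34a-5p were miR-125a-5p (r = 0.89), which can target p53 mRNA, miR-210-3p (r = 0.89), a hypoxia-induced miRNA, and miR-139-5p (r = 0.82). By deviations from the group means they were miR-125a-5p (0.92), the epithelial miRNA miR-141-3p (0.91) and miR-210-3p (0.89). None of these 4 differed between LPS and sham past the threshold. Matching by levels over both groups favours miRNAs with a similar difference between LPS and sham, so the directions of such matches are no separate result. miR-34b-5p levels were most like those of miR-350-3p (0.95), miR-29a-5p (0.95) and miR-17-5p (0.93), all higher in LPS by 0.22, 0.41 and 0.42 on the log2 scale. By deviations it was most like miR-24-2-5p, miR-24-3p and miR-17-3p (each 0.92). Of these, miR-17-3p was higher in LPS by 0.47, and miR-24-2-5p (0.10) and miR-24-3p (0.04) did not pass the threshold. miR-34c-5p levels were most like those of miR-9-3p (0.92), miR-350-3p (0.91) and miR-19a-3p (0.89), also all higher in LPS. By deviations it was most like miR-23a-3p (0.92), miR-181d-5p (0.90) and miR-30b-5p (0.89). Here miR-181d-5p was lower in LPS (LPS minus sham -0.28 on the log2 scale), and miR-23a-3p (-0.02) and miR-30b-5p (0.04) did not pass the threshold.

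The other miRNAs tied to p53 were described from 3 lists. Of 13 miRNAs known to be induced by p53 or processed with its help, 12 were on the array and 11 were tested, of which 0 were higher and 3 lower in LPS by limma, or 1 and 4 at an unadjusted p under 0.05. Over all tested miRNAs, 14.8% were higher and 25.4% lower, so the list's share of lower calls was near that of all miRNAs. Without scaling 1 was called higher and 1 lower, and without LPS replicate 6 the counts were 2 and 3. The median difference of the 11 was -0.01, against -0.08 for all tested miRNAs. The 3 lower ones were miR-192-5p (-0.28) and miR-194-5p (-0.33), abundant in kidney tubule, and miR-145a-5p (-0.44), abundant in smooth muscle. miR-22-3p (-0.11), miR-107-3p (-0.13) and miR-16-5p (0.01), the brightest uncalled members, had differences that did not pass. The miRNAs of the miR-17-92 cluster, a cell cycle cluster that p53 can repress, were higher in LPS for 6 of 6, against 14.8% of all tested miRNAs, with a median of 0.52. Their differences were 0.42 for miR-17-5p, 1.04 for miR-18a-5p, 0.42 for miR-19a-3p, 0.52 for miR-19b-3p, 0.59 for miR-20a-5p and 0.53 for miR-92a-3p. As members of the same cluster these are not 6 separate results, and the list was chosen with earlier results of these data known. A link of their rise to p53 was not tested. Of 7 miRNAs that can target p53 mRNA, 5 were tested and 0 were called by limma, also at an unadjusted p under 0.05, and 1 was called lower with spike-in scaling. The brightest had differences of 0.13 for miR-125b-5p, -0.15 for miR-30d-5p and -0.04 for miR-125a-5p.

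**Figure D5:**
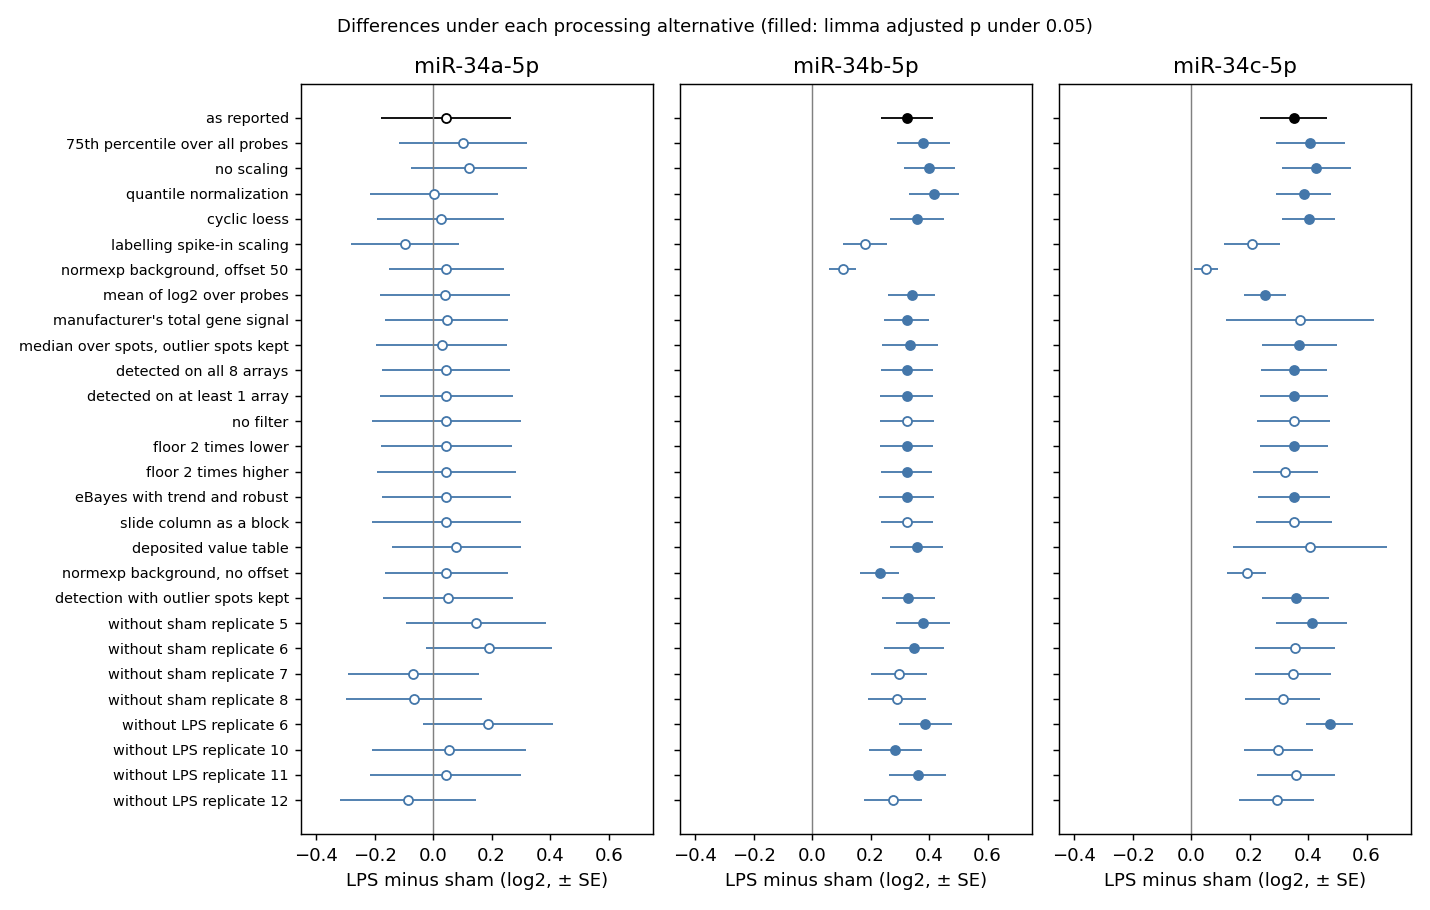
LPS minus sham difference on the log2 scale ± SE (x axis) for the 3 miR-34 5p arms as reported and under each of 27 alternatives (y axis), with filled points where the limma adjusted p was under 0.05. The alternatives change the processing or leave out an array. miR-34b-5p and miR-34c-5p stay above 0 throughout, called in 20 and 13 alternatives, and miR-34a-5p lies on both sides of 0 and is called in none.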

How the data were processed

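Scanner output of 8 arrays was deposited by the authors, with spot intensities that were background-subtracted per the file headers (Agilent Feature Extraction 12.0.3.1, per the submitters' processing notes). A table of linear ratios, also deposited by the authors, holds 1 value per miRNA and array. For 383 miRNAs it equalled the manufacturer's total signal to within 0.01 log2 in 100% of values, once 1 factor per array and 1 per miRNA were allowed; the origin of its array factors stays unknown. Its column medians ran from 0.958 to 1.06. It was an alternative only.

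Outlier spots were left out and the spots of a probe averaged. Signals were divided by the array's 75th percentile over 551 probes above background on all arrays, summed per miRNA, floored at -4.68 and log2-transformed. A probe counted as detected with over 50% of its spots well above background, counting spots not marked as outliers. An earlier version counted all spots; the rule was changed after both results had been seen, and the earlier one is kept as an alternative. The 338 miRNAs and 633 probes detected on every array of a group were tested with limma 3.58.1 in R 4.3.3 (2-sided, no covariates, Benjamini-Hochberg), checked on simulated data. Pairs were compared by an exact permutation test, inverted for the interval; a t interval was computed first and dropped as unfit for 4 arrays. Members and lists were chosen with earlier results of these data known. Named miRNAs are the family, the 3 most alike by level and by deviation, and, of the p53 lists, called members and up to 3 bright uncalled ones.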

Additional observations from a re-analysis of the deposited data

How the results depend on the processing

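With 4 arrays a group and signals of miR-34b-5p and miR-34c-5p not far above background, calls depended on the processing while directions held. miR-34b-5p was called in 20 and miR-34c-5p in 13 of 27 alternatives, all with a positive difference. Of these 27, 8 left out an array. Alternatives for the filter, eBayes and the block left the difference unchanged, so its direction was fixed in them. The causes were not tested. No paired analysis was run because the labels state no pairing of sham with LPS samples. Alternatives were not run for the 3p arms, which were at the floor on all 8 arrays. Alternatives for the filter, eBayes, block and detection were not run for the pairs.

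Spike-in scaling gave -0.10 for miR-34a-5p, 0.18 for miR-34b-5p (adjusted p = 0.0636), 0.21 for miR-34c-5p (0.0872), and -0.13 and -0.0749 for the 19- and 20-base miR-34a-5p probes, with the median of all miRNAs at -0.23 instead of -0.08. Calls split into 50 higher and 86 lower as reported, 34 and 150 with spike-in scaling, 55 and 53 with the percentile over all probes, 57 and 49 without scaling, 46 and 53 in the deposited table and 29 and 31 without a filter. Quantile normalization gave -0.0191 for the 19-base miR-34a-5p probe. normexp with an offset of 50 gave 0.10 (0.106) for miR-34b-5p and 0.051 (0.343) for miR-34c-5p; without an offset, an alternative added after seeing the data, miR-34c-5p was 0.19 (0.0553). Without a filter, 60 miRNAs and 1.95% of probes were called (136 and 38.9% as reported), with 0.32 (0.191) and 0.35 (0.313) for miR-34b-5p and miR-34c-5p. The slide column as a block left 80 miRNAs and 0.32 (0.0535) and 0.35 (0.0958). miR-34c-5p was 0.37 (0.257) with the manufacturer's total, 0.41 (0.272) in the deposited table and 0.32 (0.0574) with a floor 2 times higher, which left 22.9% of probes called. The miR-34b-5p minus miR-34c-5p response turned to 0.031 with quantile normalization, 0.0534 and 0.0408 with normexp with and without the offset, 0.0878 with the mean of log2 over probes and 0.0021 with the higher floor. Responses of miR-34a-5p minus those of miR-34b-5p and miR-34c-5p, -0.28 and -0.31 as reported, were -0.059 and -0.0059 with the offset of 50, -0.19 and -0.14 without an offset, and -0.41 and -0.38 with quantile normalization.

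Leaving out an array gave 94 to 148 called miRNAs and 27.7% to 39.7% of probes, -0.0865 to 0.19 for miR-34a-5p (negative without sham replicate 7 or 8 or LPS replicate 12), 0.28 to 0.39 for miR-34b-5p and 0.29 to 0.47 for miR-34c-5p. The pairs ranged from -0.37 to -0.16 (miR-34a-5p and miR-34b-5p), -0.42 to -0.17 (miR-34a-5p and miR-34c-5p) and -0.09 to 0.0028, and the miR-34a-5p probes from -0.12 to 0.15 and -0.0610 to 0.22.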

Other observations

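The longer of the miR-34a-5p probes gave a log2 ratio to the shorter of 0.50 ± 0.02 (SD, n = 4) in sham and 0.56 ± 0.02 (SD, n = 4) in LPS, a comparison chosen after seeing the data. The difference was 0.05 and the groups did not overlap (exact permutation test, 2-sided p = 0.0286, the smallest that 4 against 4 arrays can give, and 0.0857 adjusted over the 3 members compared). Among the 210 miRNAs with exactly 2 probes, both above background on all arrays, the groups did not overlap in this ratio for 23.8%. With the median over spots in place of the mean, the difference for miR-34a-5p was 0.03 and the groups overlapped (exact permutation test, p = 0.229). For miR-34b-5p and miR-34c-5p the probe ratios overlapped between groups.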
